A study of Mus musculus with 12 samples.

Results

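The response of the mouse carotid endothelium to disturbed flow was read in saline-treated mice, from left carotids under partial ligation (LCA) and untouched right carotids (RCA). Samples were assigned by their labels, which gave 6 of the 12 samples in the series: saline LCA 1, 2 and 4 and saline RCA 1, 2 and 4, numbered as in their titles. All 10596 genes that passed a detection rule on Illumina mouse bead arrays were compared. The mice of both groups were male C57Bl6 animals of 9 weeks that received saline by daily intraperitoneal injection for 3 weeks. In saline LCA, 3 of 4 caudal branches had been tied off on the left side 7 days before collection, which leaves slow, oscillating flow in that vessel. In saline RCA, the right carotid of such operated mice had been left alone. The other groups, 5Aza LCA and 5Aza RCA with 3 samples each, came from mice treated likewise but with 0.2 mg/kg/day of 5Aza, short for 5-aza-2'-deoxycytidine, which blocks DNA methyltransferases, in place of saline.

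Each sample was total RNA from 3 pooled arteries, released by flushing the lumen with a phenol-based lysis reagent, and the labels name it endothelial-enriched intima. The labels do not say whether the pools of a group shared mice with those of the other side, and the p-values measure only the spread between pools. No unoperated or sham-operated mouse was included, so disturbed flow, surgery and body side cannot be told apart. Nor can a change in the mix of cells in the flushed RNA be told apart from a change within endothelial cells, or fewer cells of a type from less RNA per cell.

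Endothelial cells sense the drag of flowing blood. Steady laminar flow keeps up a set of genes headed by the transcription factors Klf2 and Klf4 and the nitric oxide synthase Nos3, which hold back clotting and leukocyte adhesion. Slow, reversing flow is known to lower this set and to raise adhesion molecules and chemokines that draw monocytes into the artery wall.

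Each saline array detected 21816 to 23251 of its 45281 probes. Levels are log2 normalized intensities, on which an undetected gene lies near 4.2 to 4.5. The 3 ligated samples were not alike. Saline LCA 2 and 4 correlated over genes at 0.971 with each other, whereas saline LCA 1 correlated at 0.857 and 0.856 with them and at 0.926 to 0.934 with the saline RCA samples. The root mean square SD over genes was 0.512 in saline LCA, against 0.333 in saline RCA, and 0.269 for saline LCA 2 and 4 alone. Counts below are therefore given from the fit to all 12 arrays (1 spread per gene shared by the 4 groups), from a fit to the 6 saline arrays alone, and from the first fit without saline LCA 1.

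Ligation separated the arteries at many genes in both directions. In limma, 1221 of 10596 genes (11.5%) passed an adjusted p of 0.05 in the fit to 12 arrays, 560 higher (5.29%) and 661 lower (6.24%) in saline LCA. The fit to the 6 saline arrays called 129 genes (1.22%), of which 76 were higher (0.717%) and 53 lower (0.5%), and 128 of these were among the 1221. Without saline LCA 1 the 12-array fit called 3114 genes (29.4%), 1448 higher (13.7%) and 1666 lower (15.7%), with the remaining pair assumed to vary like the other groups. Leaving out another saline array lowered the count instead, to 179 (saline LCA 2 left out) and 207 (saline LCA 4), and to 331, 281 and 389 for saline RCA 1, 2 and 4 in that order. All 3 ligated samples lay above all 3 unligated ones at 13.3% of genes, and below them at 16.4%. "Called" below means past the threshold in the 12-array fit. The 5.29% higher and 6.24% lower are the background for the counts in each gene list. A gene undetected on all arrays of 1 saline artery passed the detection rule through another group, so it could be called in 1 direction only. Some lists also hold genes named among the largest changes, which are no separate support.

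The position of saline LCA 1 along the shift differed between genes. At the median of the 1221 called genes it had moved 44.8% of the distance from the saline RCA mean to the mean of saline LCA 2 and 4. Over the 129 genes of the 6-array fit the median was 71.6%, and 124 of them stood at 50% or more. That fit favours such genes by its construction, since a gene at which saline LCA 1 lags has a larger spread.

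The 15 largest increases among genes called in both fits, with no overlap between arteries, included many genes known from phagocytes, and also the beta-globins Hbb-bs and Hbb-bt and the chemokine Ccl5. Aif1, a calcium-binding protein of macrophages, stood at 8.80, 10.41 and 10.35 in saline LCA 1, 2 and 4 and at 4.28, 4.53 and 4.90 in saline RCA 1, 2 and 4. All 3 ligated samples lay far above the unligated ones, with saline LCA 1 the lowest of them. The log2 fold change was 5.28 (SE 0.39, adjusted p = 6.75e-05 in limma, and 0.00929 in the 6-array fit). Tyrobp, the signalling adaptor of myeloid receptors, measured 8.09, 10.03 and 10.16 against 4.21, 4.43 and 5.48 and rose by 4.72 (SE 0.57, adjusted p = 0.00125). C1qb, a chain of the complement starter C1q, measured 7.17, 9.13 and 9.39 in the ligated arteries and was detected in no unligated sample, which makes it at least 16.7-fold higher (adjusted p = 0.0021).

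Further genes of phagocytes followed the same order of samples. Clec7a, the beta-glucan receptor dectin-1, measured 7.53, 8.78 and 9.07 against 4.22, 4.39 and 4.81 (log2 fold change 3.99, adjusted p = 0.000836). Mpeg1, a pore-forming protein of macrophages, measured 7.45, 9.16 and 9.40 against 4.23, 4.48 and 5.43 (change 3.96, adjusted p = 0.00218). Ctss, the lysosomal protease cathepsin S that trims the MHC class II chaperone, measured 7.71, 9.26 and 9.53 against 4.54, 4.96 and 5.79 (change 3.74, adjusted p = 0.0047). In each of the 3 genes saline LCA 1 lay between the unligated samples and the other ligated pair, and saline RCA 4 was the highest unligated sample.

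Bcl2a1d, an anti-apoptotic protein of leukocytes, measured 6.60, 9.07 and 9.16 against 4.27, 4.20 and 4.58 and rose by 3.93 (adjusted p = 0.0029). Lat2, a membrane adaptor of myeloid and B cells, measured 8.80, 9.84 and 9.83 against 5.12, 5.97 and 5.84 and rose by 3.85 (adjusted p = 0.000611). Tgfbi, a secreted matrix protein induced by TGF-beta, measured 7.33, 8.99 and 9.14 against 5.02, 4.57 and 5.50 and rose by 3.45 (adjusted p = 0.00361). No unligated sample detected the next 3 genes. Fcer1g, the signalling chain of immunoglobulin receptors, rose at least 11.7-fold (adjusted p = 0.00205), the T-cell chemokine Ccl5 at least 10.2-fold (adjusted p = 0.00205) and the complement chain C1qc at least 9.79-fold (adjusted p = 0.00427).

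Cd74, the chaperone of MHC class II molecules, had another pattern. It measured 10.28, 10.50 and 10.63 in the ligated and 7.52, 5.84 and 6.75 in the unligated arteries, so that saline LCA 1 stood beside its pair while the unligated samples spread widely. It rose by 3.77 (SE 0.71, adjusted p = 0.0112), and the call was lost without saline LCA 2, saline LCA 4 or saline RCA 2. The adult beta-globin genes Hbb-bs (7.79, 9.31 and 9.46 against 4.27, 4.38 and 5.30, change 4.20, adjusted p = 0.0348) and Hbb-bt (7.07, 8.69 and 8.82 against 4.41, 4.49 and 4.84, change 3.61, adjusted p = 0.0335) completed the 15 increases. Both globin calls were lost when any saline array other than saline LCA 1 was left out, and their probes may not tell the near-identical copies apart, which was not checked.

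**Figure D1:**
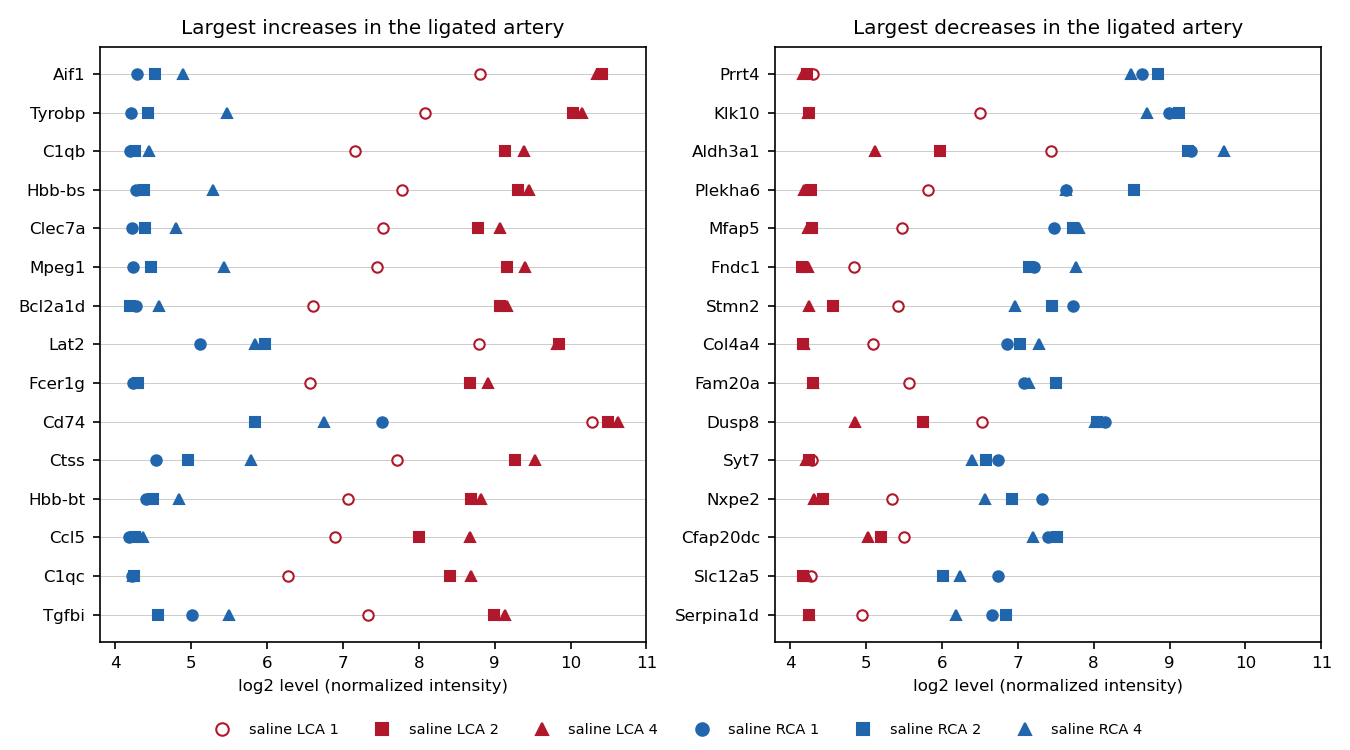
Log2 level (horizontal axis, normalized intensity) of the 15 largest increases and 15 largest decreases called in both fits, 1 symbol per sample, red for saline LCA and blue for saline RCA. No gene has overlapping groups, a condition of their choice; the open circle, saline LCA 1, lies between the groups at most genes and beside its pair at Cd74, while at Prrt4, Syt7 and Slc12a5 all 3 ligated samples are at background.

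The largest decrease was that of Prrt4, a proline-rich transmembrane protein. It measured 4.30, 4.23 and 4.17 in saline LCA 1, 2 and 4, where no array detected it, and 8.63, 8.85 and 8.49 in the unligated arteries. The gene was at least 18.3-fold lower (adjusted p = 2.48e-07, and 0.000374 in the 6-array fit). Klk10, a kallikrein-related secreted serine protease, measured 6.50, 4.26 and 4.24 against 9.00, 9.12 and 8.70 and fell by 3.94 on the log2 scale (SE 0.47, adjusted p = 0.00125). Aldh3a1, an aldehyde dehydrogenase that clears reactive aldehydes, measured 7.44, 5.97 and 5.11 against 9.29, 9.24 and 9.72 and fell by 3.24 (SE 0.44, adjusted p = 0.00218). At both of these genes saline LCA 1 lay about midway between the arteries.

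Plekha6, a pleckstrin-homology protein of epithelial junctions, measured 5.81, 4.28 and 4.19 against 7.64, 8.53 and 7.64 (change -3.17, adjusted p = 0.0033). Mfap5, a microfibril protein of elastic fibres, measured 5.47, 4.30 and 4.24 against 7.48, 7.73 and 7.81 (change -3.00, adjusted p = 0.000442). Fndc1, a fibronectin type III domain protein, measured 4.85, 4.16 and 4.23 against 7.22, 7.16 and 7.77 (change -2.97, adjusted p = 0.000176). Each was detected on 1 of the 3 ligated arrays, saline LCA 1, and on all unligated ones. Col4a4, a chain of the specialised type IV collagen of some basement membranes, measured 5.10, 4.17 and 4.19 against 6.86, 7.03 and 7.28 (change -2.57, adjusted p = 0.000583). Fam20a, a pseudokinase that partners a secretory kinase, measured 5.57, 4.30 and 4.30 against 7.09, 7.50 and 7.14 (change -2.52, adjusted p = 0.00602).

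Stmn2, a tubulin-binding protein of growing axons, measured 5.42, 4.57 and 4.25 against 7.73, 7.46 and 6.97 (change -2.64, adjusted p = 0.00106). Syt7, a calcium sensor of vesicle fusion, was detected in no ligated sample and measured 6.74, 6.58 and 6.39 in the unligated ones, at least 4.31-fold lower after ligation (adjusted p = 6.75e-05). Slc12a5, the neuronal potassium-chloride cotransporter, was likewise undetected in the ligated arteries against 6.74, 6.02 and 6.24, at least 3.66-fold lower (adjusted p = 0.00218). At Prrt4, Syt7 and Slc12a5 all 3 ligated samples were at background, so their values there cannot be ranked. Among the 10 Schwann cell and neuron markers on the array, S100b, Snap25 and Sox10 were undetected in all 6 saline samples. Mag was undetected in the unligated samples only. The summed marker level was 242 to 339 in saline LCA against 477 to 558 in saline RCA. That sum includes Stmn2, chosen above for its decrease, so it is not separate from it. The part of nerve RNA in these decreases was not tested.

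The other named decreases were smaller. Dusp8, a phosphatase of stress-activated kinases, measured 6.53, 5.75 and 4.86 against 8.15, 8.05 and 8.02 (change -2.36, adjusted p = 0.0315), a call likewise lost without any saline array other than saline LCA 1. Nxpe2, of a family with uncertain function, changed by -2.23 (adjusted p = 0.00214) and Cfap20dc by -2.13 (adjusted p = 0.000583). Serpina1d, a copy of the serum antiprotease alpha-1-antitrypsin, measured 4.95, 4.26 and 4.25 against 6.67, 6.85 and 6.19 (change -2.08, adjusted p = 0.000939). Its probe may not tell the near-identical Serpina1 copies apart, which was not checked.

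Fold sizes depended on the background. From the authors' deposited normalized intensities, for which no background subtraction is stated, 27 of the 30 named genes changed by over 1.5 times less on the log2 scale, at a median of 0.571 of the values above. None of the 30 reversed, and the calls of Hbb-bs and Hbb-bt were lost.

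The start-site sequences of the genes at either end of this ranking are shown with their CpG, the substrate of the enzymes that 5Aza inhibits. These arrays do not measure DNA methylation. The windows run from 250 bases before to 50 bases after the annotated start, 5′ to 3′ on the strand of the gene, from RefSeq on build GRCm38.p6, with CpG in capitals. For the increases they are Aif1 (chr17:35176003-35176302, minus strand), C1qb (chr4:136886151-136886450, minus strand) and Hbb-bs (chr7:103827879-103828178, minus strand), since Tyrobp had no entry in the table used here.
Aif1: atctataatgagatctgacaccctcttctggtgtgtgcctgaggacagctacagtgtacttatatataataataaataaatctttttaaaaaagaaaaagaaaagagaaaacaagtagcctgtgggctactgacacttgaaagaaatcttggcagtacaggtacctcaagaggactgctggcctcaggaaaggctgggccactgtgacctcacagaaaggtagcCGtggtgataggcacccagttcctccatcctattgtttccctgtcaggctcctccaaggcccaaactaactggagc
C1qb: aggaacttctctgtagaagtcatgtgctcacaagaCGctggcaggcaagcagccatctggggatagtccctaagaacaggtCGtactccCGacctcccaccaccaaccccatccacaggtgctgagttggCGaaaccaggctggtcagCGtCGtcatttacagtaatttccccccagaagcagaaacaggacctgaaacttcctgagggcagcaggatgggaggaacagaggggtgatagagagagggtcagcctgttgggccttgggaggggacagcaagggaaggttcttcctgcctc
Hbb-bs: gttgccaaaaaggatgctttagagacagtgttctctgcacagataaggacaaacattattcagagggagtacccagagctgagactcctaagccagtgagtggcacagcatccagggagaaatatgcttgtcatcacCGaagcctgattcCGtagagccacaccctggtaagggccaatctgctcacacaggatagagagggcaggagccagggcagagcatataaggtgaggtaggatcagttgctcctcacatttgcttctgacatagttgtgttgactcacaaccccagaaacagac

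For the decreases they are Prrt4 (chr6:29179535-29179834, minus strand), Klk10 (chr7:43780804-43781103, plus strand) and Plekha6 (chr1:133245847-133246146, plus strand), since Aldh3a1 had no entry.
Prrt4: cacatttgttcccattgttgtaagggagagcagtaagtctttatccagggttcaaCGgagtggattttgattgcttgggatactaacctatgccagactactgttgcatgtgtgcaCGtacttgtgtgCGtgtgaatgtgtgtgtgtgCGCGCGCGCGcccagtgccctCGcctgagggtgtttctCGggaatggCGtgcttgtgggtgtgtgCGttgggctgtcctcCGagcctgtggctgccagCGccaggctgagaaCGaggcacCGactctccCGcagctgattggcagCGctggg
Klk10: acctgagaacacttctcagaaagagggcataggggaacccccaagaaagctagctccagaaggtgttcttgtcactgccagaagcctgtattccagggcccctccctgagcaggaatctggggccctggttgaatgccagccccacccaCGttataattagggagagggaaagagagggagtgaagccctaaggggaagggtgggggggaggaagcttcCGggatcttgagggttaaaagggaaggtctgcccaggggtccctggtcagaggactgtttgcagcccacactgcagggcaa
Plekha6: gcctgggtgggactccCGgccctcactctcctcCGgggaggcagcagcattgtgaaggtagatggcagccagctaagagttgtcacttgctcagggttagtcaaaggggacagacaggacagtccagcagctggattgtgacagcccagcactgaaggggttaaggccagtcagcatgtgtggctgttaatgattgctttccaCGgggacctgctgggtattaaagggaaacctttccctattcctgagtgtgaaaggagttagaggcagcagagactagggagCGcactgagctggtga

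The windows hold 1 CpG in Aif1, 6 in C1qb and 2 in Hbb-bs, against 18 in Prrt4, 2 in Klk10 and 4 in Plekha6. Of the 10596 genes, 8562 had a window, with a median of 21 CpG. Called-higher genes had a median of 18 (n = 460), and 22.2% of them held 5 or fewer, against 10.8% of all genes. The genes called higher in the 6-array fit had a median of 7 (n = 58), with 43.1% at 5 or fewer. Those called lower had medians of 21 in the 12-array fit (n = 527) and 20 in the 6-array fit (n = 39). Of the 11 macrophage and monocyte markers with a window, 8 held 5 or fewer.

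**Figure D2:**
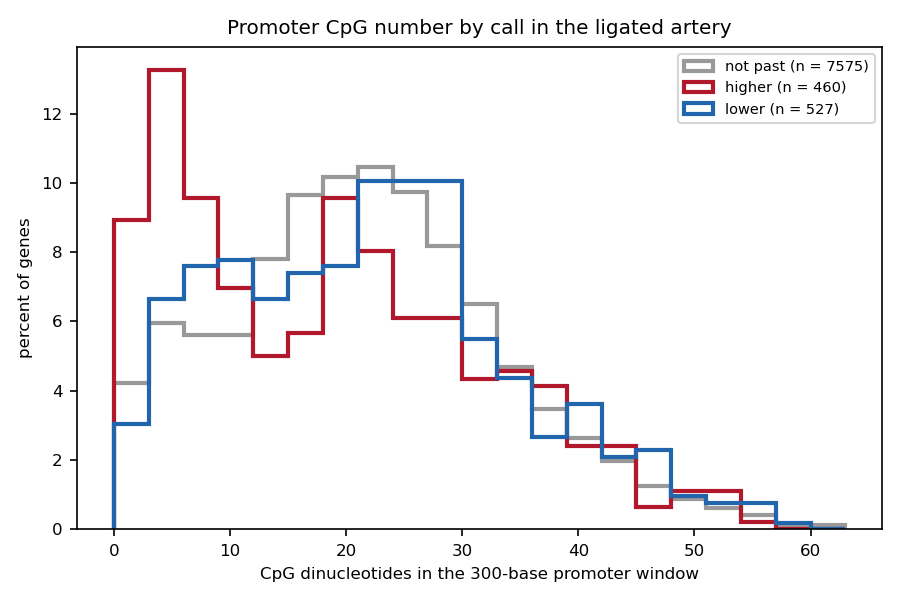
Share of genes (vertical axis, percent) by number of CpG dinucleotides in the 300-base window at the start site (horizontal axis), for genes called higher in saline LCA (red, n = 460), called lower (blue, n = 527) and not past the threshold (grey, n = 7575). The red outline peaks below 10 CpG, where 22.2% of called-higher genes hold 5 or fewer.

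Short motifs were searched on both strands of the same windows. GAGGAAG, a core read by the myeloid factor PU.1, lay in 13.2% of all windows, in 18.9% of those called higher and 13.5% of those called lower. In the 6-array fit it lay in 27.6% of those called higher and 20.5% of those called lower, and it lay in 5 of 11 windows of macrophage markers and in 6 of 13 windows of flow-maintained genes. CCACCC, a core read by KLF factors, lay in 36.6% of all windows, in 35.2% of those called higher and 43.8% of those called lower. In the 6-array fit it lay in 25.9% of those called higher and 53.8% of those called lower. CACGTG, the E-box read by the clock pair CLOCK and BMAL1 among others, lay in 10.4% of all windows, in 11.3% of those called higher, in 6.07% of those called lower and in 3 of 11 windows of clock genes. These shares describe letters in the windows, with no test.

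Macrophage and monocyte markers rose almost throughout. Of 15 tested, from 18 on the array, 14 were higher in saline LCA, beside 5.29% of all genes. None was lower, and 1 did not pass. The 6-array fit called 8 of the 15, and the fit without saline LCA 1 called all 15. Leaving out 1 of the other saline arrays left 10 to 13. Their median log2 fold change was 3.69 (3.55 with 5 members at their bounds), beside -0.05 over all genes tested. Those 5 were undetected in all unligated arteries, so they could be called in 1 direction only. Aif1, Tyrobp, C1qb, C1qc, Mpeg1, Fcer1g and Ctss were named above among the largest increases on these arrays, so they are no separate support. The list's summed linear intensity was 2908, 10227 and 11228 in saline LCA 1, 2 and 4 and 354, 512 and 955 in saline RCA 1, 2 and 4. Saline LCA 1 thus held far less of this signal than the other ligated pools, and 8 of the 18 markers, Adgre1 and Itgam among them, were undetected in all unligated arteries.

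Erythroid and platelet markers had the same order among the ligated samples, though not among the unligated ones. Their summed intensity was 832, 2210 and 2374 in saline LCA 1, 2 and 4 and 582, 493 and 569 in saline RCA 1, 2 and 4. Of 8 tested, 4 rose and none fell (2 and 0 in the 6-array fit, 5 and 0 without saline LCA 1), with a median of 1.97, and none was called when any other saline array was left out. Hbb-bs and Hbb-bt were named above among the largest increases and are no separate support. The part of blood left in the lumen was not tested.

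Genes that MHC class II presentation needs moved with them. Of 8 tested, 7 rose and none fell (4 and 0 in the 6-array fit, 7 and 0 without saline LCA 1), with a median of 2.69. The beta chain H2-Eb1 measured 7.78, 8.33 and 8.46 against 5.08, 4.95 and 4.92 (change 3.21, SE 0.51, adjusted p = 0.00591, and 0.00447 in the 6-array fit). The beta chain H2-Ab1 measured 9.40, 10.29 and 10.44 against 7.40, 6.78 and 7.29 (change 2.89, adjusted p = 0.00394). The alpha chain H2-Aa measured 9.59, 9.56 and 9.68 against 7.13, 5.60 and 7.03 (change 3.02, adjusted p = 0.0122). At H2-Eb1 and H2-Aa saline LCA 1 lay close to its pair. The count rested on single arrays, at 2 without saline LCA 2, saline LCA 4 or saline RCA 2, and 4 without saline RCA 4.

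Markers of other leukocytes were less complete. Of 4 tested neutrophil markers, 2 rose (none in the 6-array fit): the alarmin S100a9, at least 11.6-fold (adjusted p = 0.0154), and Cxcr2, a receptor for neutrophil attractants, at least 2.25-fold (adjusted p = 0.0367). Their summed level was 255 in saline LCA 1, close to the 205 to 209 of the unligated samples, but 879 and 886 in saline LCA 2 and 4. Of 6 dendritic cell markers tested, the integrin Itgax (at least 4.49-fold, adjusted p = 0.0299) and the transcription factor Irf8 (at least 3.46-fold, adjusted p = 0.0474) rose, with saline LCA 1 again near the unligated level at 4.82 and 4.56. Neither stayed called when a saline array other than LCA 1 was left out. S100a9, Cxcr2, Itgax and Irf8 were undetected in the unligated arteries, so the absence of decreases among them was fixed by the detection rule. No T or NK cell marker of 5 tested was called (2 without saline LCA 1), and Cd8b1 measured 5.15, 5.96 and 6.21 against 5.33, 5.44 and 4.61 (adjusted p = 0.231). Most of the 16 T and NK markers on the array were not tested. Of the 16, 9 were undetected in all unligated samples and 3 in all ligated ones. Cd3d, Cd3e, Cd4, Il2rb, Nkg7 and Zap70 were thus detected only on the ligated side. Their list's summed level overlapped, at 1363, 1498 and 1542 in saline LCA against 1476, 1334 and 1436 in saline RCA. None of 9 B cell markers on the array passed the detection rule. The part of these cells in the other immune gene lists was not tested.

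Resident-type macrophage markers moved both ways. Of 12 tested, the lectin Clec10a (4.00, adjusted p = 0.0117) and the mannose receptor Mrc1 (at least 4.98-fold, adjusted p = 0.0171) rose. The growth factor Gas6 (-1.27, adjusted p = 0.0302), the scavenger receptor Stab1 (-0.71, adjusted p = 0.0417) and the carbonyl reductase Cbr2 (-0.85, adjusted p = 0.0437) fell. The 6-array fit called none of the 12, the fit without saline LCA 1 called 2 higher and 5 lower, and leaving out another saline array left 0 or 1 higher and none lower.

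Complement genes rose at their starting and amplifying ends. Of 14 tested, 6 rose and 1 fell (3 and 0 in the 6-array fit, 8 and 2 without saline LCA 1), among them all 3 chains of C1q. C1qa rose at least 7.26-fold (adjusted p = 0.00651). No unligated sample detected a C1q chain, and C1qb and C1qc were already named among the largest increases. Properdin, Cfp, which stabilises the alternative convertase, measured 6.96, 8.87 and 9.12 against 6.07, 5.44 and 5.75 (change 2.56, adjusted p = 0.0106). The inhibitor of membrane attack Cd59a measured 8.05, 7.65 and 7.42 against 8.90, 9.16 and 8.42 and was the member that fell (change -1.12, adjusted p = 0.0165). The 6 counted higher became 3 without saline LCA 2 and 4 without any 1 of saline LCA 4 or the unligated arrays.

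Chemokines rose in part. Of 17 tested, 5 rose and none fell (2 and 0 in the 6-array fit, 10 and 0 without saline LCA 1, and 2 or 3 without 1 of the other saline arrays). The interferon-induced Cxcl10 measured 5.71, 6.42 and 5.85 in the ligated arteries, was detected in no unligated one, and rose at least 2.81-fold (adjusted p = 0.000931). The monocyte and T-cell attractant Ccl4 measured 5.47, 7.13 and 7.82 against 4.25, 4.66 and 4.29 (change 2.41, adjusted p = 0.031). The stromal chemokine Cxcl12, which retains cells bearing Cxcr4, measured 9.47, 9.03 and 8.40 against 7.56, 7.07 and 8.26 (change 1.33, adjusted p = 0.0256). Only Cxcl12 of these was highest in saline LCA 1.

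On the receptor side, 4 of 7 tested rose and none fell (0 in the 6-array fit), beside 5.29% and 6.24% of all genes. Cxcr4, Cx3cr1 and Cxcr2 were undetected in the unligated arteries, so the detection rule fixed their direction. Cxcr4, the receptor of Cxcl12, measured 5.03, 7.83 and 8.07 and was undetected in the unligated arteries, at least 5.56-fold higher (adjusted p = 0.0187). Cx3cr1, the fractalkine receptor, rose at least 2.5-fold (adjusted p = 0.0489), and the scavenging receptor Ackr4 rose by 1.17 (adjusted p = 0.0367). Saline LCA 1 stood near the unligated level at Cxcr4, Cx3cr1 and Cxcr2, and no receptor stayed called when any 1 of the other saline arrays was left out. NF-kB factors and their feedback genes gave 3 of 12 higher (0 in the 6-array fit, and 0 or 1 without a saline array other than LCA 1), led by the ubiquitin-editing inhibitor Tnfaip3 (7.48, 7.43 and 6.58 against 5.64, 5.77 and 6.27, change 1.27, adjusted p = 0.0301). Interferon-stimulated genes gave 1 of 19, the RNA sensor Ifih1, which fell by 0.72 on the log2 scale (adjusted p = 0.0443). Without saline LCA 1, 3 interferon-stimulated genes were called higher and 1 lower.

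Adhesion genes moved both ways. Of 14 tested, 2 rose and 3 fell (0 and 1 in the 6-array fit, and 0 or 1 higher and 1 to 3 lower without a saline array other than LCA 1). The leukocyte integrin Itgb2 was at least 6.29-fold higher (adjusted p = 0.0148), and E-selectin, Sele, the endothelial receptor on which leukocytes roll, measured 7.37, 8.41 and 7.73 against 6.85, 6.01 and 5.93 (change 1.57, adjusted p = 0.0497). The junctional molecule Jam2 measured 7.65, 5.23 and 5.20 against 8.72, 8.93 and 8.87 and fell by 2.81 (adjusted p = 0.00961). Icam2, a constitutive endothelial ligand of leukocyte integrins, measured 8.69, 8.34 and 8.05 against 9.82, 10.18 and 9.81 and fell by 1.58 (SE 0.19, adjusted p = 0.00125, and 0.0306 in the 6-array fit). Cd99l2, which helps leukocytes cross the endothelium, fell by 1.35 (adjusted p = 0.0139).

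The phagocyte oxidase subunits Ncf4 (6.30, 7.21 and 7.22 against 4.29, 4.91 and 4.58, change 2.32, adjusted p = 0.00315) and Cybb (change 3.01, adjusted p = 0.0109) rose, as did Ncf1 (at least 1.65-fold, adjusted p = 0.0242). Noxo1, the organiser of a non-phagocyte oxidase, measured 6.38, 5.69 and 6.47 against 7.98, 7.51 and 7.47 and fell by 1.47 (adjusted p = 0.0307). That gave 3 of 6 oxidase genes higher and 1 lower (1 and 0 in the 6-array fit, and 1 or 2 and 0 without a saline array other than LCA 1). Of 21 lysosomal genes tested, Ctss and the dipeptidyl peptidase Ctsc (8.13, 9.27 and 9.12 against 5.77, 6.88 and 6.09, change 2.59, adjusted p = 0.0235) rose in both fits, and cathepsin H, Ctsh, fell by 0.87 (adjusted p = 0.0236).

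**Figure D3:**
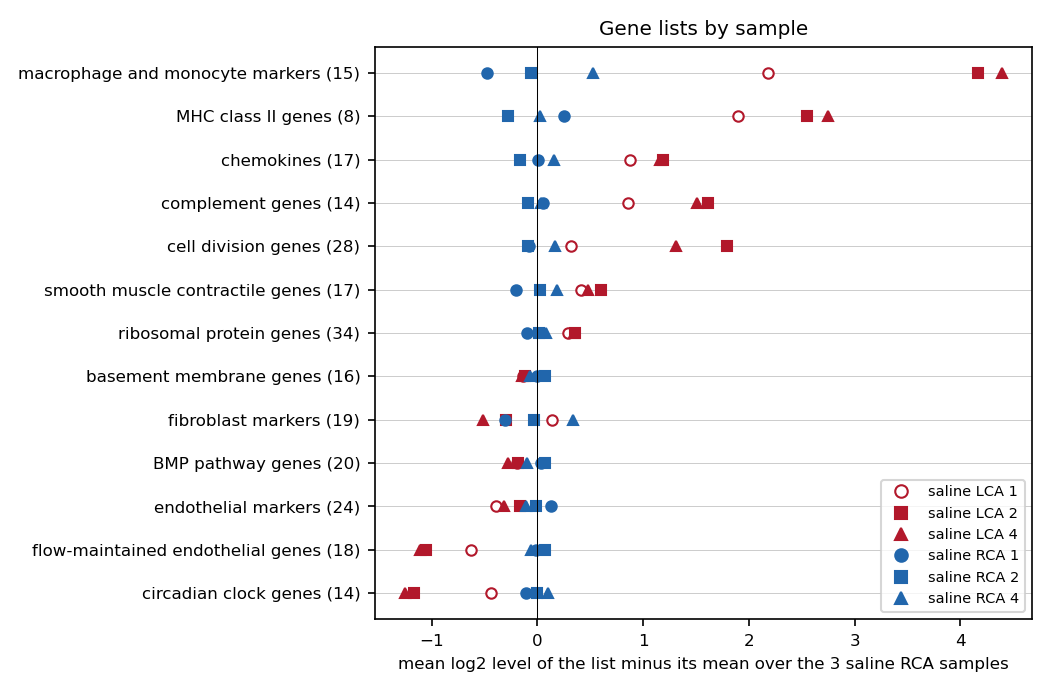
Mean log2 level of each gene list minus its mean over the 3 saline RCA samples (horizontal axis), 1 symbol per sample, with the number of genes in parentheses. Macrophage and MHC class II genes are highest in all 3 saline LCA samples; saline LCA 1 sits near the unligated samples for cell division genes and nearer its pair for MHC class II genes.

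Endothelial markers stayed well detected while some fell. Each of the 25 endothelial markers on the array was detected on at least 1 array of each artery, and their summed intensity was 10605 to 10780 in saline LCA against 13432 to 14019 in saline RCA, with no overlap. Of 24 tested, 5 fell and none rose (1 and 0 in the 6-array fit; 8 fell and 2 rose without saline LCA 1), with a median of -0.30. Besides Icam2, the calcitonin-receptor-like receptor Calcrl measured 6.40, 6.04 and 4.97 against 7.92, 7.57 and 7.55 (change -1.88, adjusted p = 0.00581). Its partner Ramp2, which makes it an adrenomedullin receptor, measured 9.07, 9.35 and 9.43 against 10.07, 10.27 and 10.15 (change -0.87, adjusted p = 0.0138). The summed level of smooth muscle genes was 4409 to 5547 in saline LCA against 2647 to 3467 in saline RCA, and that of fibroblast markers was 3042 to 4205 against 4079 to 5035. The part of these cell types in the endothelial decreases was not tested.

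Many genes that steady flow maintains fell. Of 18 tested, 8 fell and none rose, beside 6.24% of all genes that fell. The 6-array fit called 1 of them, Klk10, already named above among the largest decreases on these arrays. The list was chosen with earlier results of these data known, so Klk10 in it is no separate support. The count was 12 lower and 2 higher without saline LCA 1 and 3 to 5 lower without 1 of the other saline arrays. Klf4 measured 7.37, 6.25 and 6.74 against 8.20, 8.75 and 8.70 (change -1.76, adjusted p = 0.00691, and 0.0521 in the 6-array fit). Klf2 measured 5.15, 6.15 and 4.96 against 7.88, 7.52 and 6.62 (change -1.91, adjusted p = 0.0134). Nos3 measured 7.83, 6.08 and 6.00 against 8.32, 8.69 and 8.57 (change -1.89, adjusted p = 0.0149). The 3 genes ordered the ligated samples differently: saline LCA 1 was the highest at Klf4 and Nos3, but at Klf2 it stood at 5.15, within its pair.

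Of 13 VEGF and angiopoietin genes tested, 1 rose and 2 fell, beside 5.29% and 6.24% of all genes. The counts were 1 and 0 in the 6-array fit, 1 and 2 without saline LCA 1, and 1 and 1 without another saline array. The ligand Angpt2 and its receptor Tek moved in opposite directions. Angpt2, the ligand that activated endothelium releases and that opposes Tie2 signalling, measured 8.93, 9.14 and 9.02 in saline LCA and 6.29, 6.40 and 6.39 in saline RCA. The 3 ligated samples lay close together, saline LCA 1 included, and the gene rose by 2.67 (SE 0.30, adjusted p = 0.000931, and 0.0029 in the 6-array fit). Its receptor Tek (Tie2) measured 8.52, 7.94 and 7.67 against 9.29, 9.35 and 9.28 and fell by 1.26 (SE 0.21, adjusted p = 0.00625). Ptprb, the phosphatase that restrains Tie2, measured 10.30, 9.42 and 9.57 against 10.68, 10.66 and 10.48 and fell by 0.84 (adjusted p = 0.0369). The other 10 of 13 VEGF and angiopoietin genes did not pass.

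Vasoactive genes gave 2 of 14 higher and 2 lower (1 and 1 in the 6-array fit), beside 5.29% and 6.24% of all genes. Thromboxane synthase, Tbxas1, an enzyme of platelets and macrophages, measured 6.45, 7.83 and 8.13 against 4.22, 4.19 and 5.14 (change 2.95, adjusted p = 0.00281). The endothelial constrictor endothelin-1, Edn1, measured 9.77, 9.92 and 9.76 against 8.82, 8.90 and 8.35 (change 1.13, adjusted p = 0.0313). The receptor of C-type natriuretic peptide Npr2 measured 6.50, 6.14 and 6.40 against 7.86, 7.69 and 7.70 (change -1.40, SE 0.18, adjusted p = 0.00157), and Nos3 was the other that fell. Edn1 and Npr2 separated the arteries with all 3 ligated samples close together. Among clotting genes, the protein C receptor Procr rose by 0.90 (adjusted p = 0.0202), and von Willebrand factor, Vwf, fell by 0.93 (adjusted p = 0.0148).

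BMP pathway genes did not move one way. Of 20 tested, 10 had a positive and 10 a negative change, with a median of 0.04, while 5 fell and none rose by the test (0 in the 6-array fit; 6 lower and 3 higher without saline LCA 1; 1 or 2 lower without 1 of the other saline arrays). The secreted antagonist Chrd measured 4.84, 4.26 and 4.39 against 6.71, 7.30 and 5.82 (change -2.12, adjusted p = 0.00846). The endothelial type I receptor Acvrl1 measured 6.88, 6.28 and 6.16 against 7.69, 7.62 and 7.84 (change -1.28, adjusted p = 0.00955). The type II receptor Bmpr2 (change -1.11, adjusted p = 0.0255) and the inhibitory Smad7 (change -1.12, adjusted p = 0.03) fell mainly in saline LCA 2 and 4, at 8.33 and 8.30 and 6.98 and 6.90. No Notch pathway gene of 15 was called. Hey2, a Notch target, measured 6.81, 6.59 and 6.90 against 7.69, 7.47 and 7.54 (adjusted p = 0.0514).

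Some genes of the TGF-beta and YAP lists rose alike in all ligated samples. The YAP and TAZ list as a whole had 6 positive and 8 negative changes, with a median of -0.09. The TGF-beta list had 10 positive and 6 negative changes, with a median of 0.25. Ccn2 (connective tissue growth factor), a target of both pathways, measured 10.46, 10.30 and 10.27 against 8.10, 8.56 and 9.03 (change 1.78, SE 0.33, adjusted p = 0.0102, and 0.0306 in the 6-array fit). Axl, a receptor tyrosine kinase for Gas6, measured 8.02, 7.86 and 8.32 against 4.86, 6.31 and 6.59 (change 2.15, adjusted p = 0.00826). Vgll3, a cofactor of TEAD factors, measured 5.97, 5.95 and 5.74 against 4.85, 4.75 and 4.79 (change 1.09, adjusted p = 0.0443). At Ccn2, Axl and Vgll3 the 3 ligated samples stood close together, and these genes were the 3 of 14 YAP and TAZ pathway genes that rose (2 in the 6-array fit). The repressor Ski measured 7.97, 5.96 and 5.75 against 8.65, 8.51 and 8.62 (change -2.03, adjusted p = 0.0188) and, with Ltbp4 and Skil, made 3 of 16 TGF-beta genes that fell, beside 2 that rose. Without a saline array other than LCA 1, 2 or 3 rose and at most 1 fell.

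Of 8 genes of endothelial to mesenchymal transition, vimentin, Vim, measured 9.46, 9.43 and 9.49 against 8.14, 8.02 and 8.53 (change 1.23, adjusted p = 0.00928) and was called in both fits. S100a4, a calcium-binding protein of fibroblasts and leukocytes, rose by 1.56 (adjusted p = 0.0435), mainly in saline LCA 2 and 4. The transcription factor Twist1 measured 6.66, 5.50 and 5.71 against 7.28, 7.79 and 7.87 and fell by 1.69 (adjusted p = 0.00786).

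Circadian clock genes fell in part, in saline LCA 2 and 4 above all. Of 14 tested, 7 fell and none rose, beside 6.24% of all genes that fell, with a median of -0.92. None passed in the 6-array fit, 11 passed without saline LCA 1, and 0 to 2 passed without 1 of the other saline arrays, with none left without saline LCA 2 or saline LCA 4. The period gene Per3 measured 5.72, 4.37 and 4.38 against 6.54, 6.91 and 6.83 (change -1.94, adjusted p = 0.0106). Per2 measured 6.09, 5.21 and 4.88 against 7.35, 6.77 and 7.71 (change -1.88, adjusted p = 0.0215). The clock-driven factor Dbp measured 7.62, 5.33 and 5.06 against 8.38, 8.16 and 8.99 (change -2.51, adjusted p = 0.0232). Bhlhe40, a repressor of the clock, measured 8.27, 7.98 and 7.64 against 8.84, 9.75 and 9.50 (change -1.40, adjusted p = 0.0175). At all 4 genes saline LCA 1 was the highest ligated sample, and all 3 ligated samples lay below the unligated ones. The labels give no time of day of collection.

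Cell division genes rose in saline LCA 2 and 4 and little in saline LCA 1. Of 28 tested, 10 rose and none fell, 22 without saline LCA 1, none in the 6-array fit, and 1 to 4 without 1 of the other saline arrays. Saline LCA 1 had moved 20.4% of the pair's distance over the list. Survivin, Birc5, measured 5.77, 7.34 and 7.17 against 4.57, 4.69 and 4.81 (change 2.07, adjusted p = 0.00666). The spindle protein Prc1 measured 5.73, 7.76 and 7.32 against 4.55, 4.93 and 5.09 (change 2.08, adjusted p = 0.0121). Borealin, Cdca8, of the same complex as survivin, measured 5.90, 8.21 and 7.69 against 4.23, 4.19 and 5.50 (change 2.62, adjusted p = 0.019). The S-phase activator E2f1 rose by 1.13 (adjusted p = 0.0209). Macrophage, neutrophil and division genes were all highest in saline LCA 2 and 4, and the part of dividing leukocytes was not tested.

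Changes in the wall's matrix were of both signs. Among 16 basement membrane genes, the laminin gamma chain Lamc1 measured 7.92, 8.70 and 8.42 against 6.75, 6.66 and 6.98 (change 1.55, adjusted p = 0.0165). The beta chain Lamb1 rose by 2.40 (adjusted p = 0.0265), whereas its alternative Lamb2 measured 8.73, 6.89 and 7.01 against 9.53, 9.35 and 9.41 and fell by 1.89 (adjusted p = 0.0147). Col4a3, the neighbour and partner chain of Col4a4, measured 7.86, 4.20 and 4.52 against 8.84, 8.75 and 8.72 (change -3.24, adjusted p = 0.0188), so that saline LCA 1 lay between the unligated samples and its pair. The list gave 2 higher and 3 lower (1 and 1 in the 6-array fit, 4 and 4 without saline LCA 1, and 0 or 1 higher and 1 or 2 lower without another saline array).

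The elastic fibre genes called in the 12-array fit fell, beside 6.24% of all genes that fell, though 5 tested members had a positive and 7 a negative change. Without saline LCA 1, 4 were called lower and 1 higher, and without another saline array 2 were lower. Of 12 tested, 3 fell and none rose (2 and 0 in the 6-array fit): Mfap5, elastin itself, Eln (8.61, 9.02 and 8.77 against 9.85, 10.44 and 10.10, change -1.33, adjusted p = 0.0101), and the cross-linking enzyme Lox (8.05, 8.45 and 8.40 against 9.36, 9.26 and 8.89, change -0.87, adjusted p = 0.0435). Macrophage elastase, Mmp12, measured 8.92, 8.29 and 8.06 against 4.25, 4.96 and 5.77 and rose by 3.43 (SE 0.52, adjusted p = 0.0047, and 0.0223 in the 6-array fit), with saline LCA 1 the highest sample. The collagenase Mmp13 measured 6.46, 9.82 and 9.59 against 4.28, 4.40 and 4.95 (change 4.08, adjusted p = 0.0139). The protease inhibitor Timp2 measured 10.17, 9.74 and 9.83 against 10.86, 10.73 and 10.92 and fell by 0.92 (adjusted p = 0.00889). Collagens gave 2 of 13 higher (0 or 1 without a saline array other than LCA 1), the fibrillar Col1a1 (1.65, adjusted p = 0.0147) and the vascular short-chain Col8a1 (2.01, adjusted p = 0.0194).

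Kallikreins and serpins gave 5 of 12 lower and none higher, beside 6.24% of all genes lower. The counts were 2 and 0 in the 6-array fit, and 7 lower and 1 higher without saline LCA 1. Members already named among the largest decreases are no separate support. Probes of Serpina1a and Serpina1b may read each other's near-identical copies, which was not checked. Serpina1b measured 4.89, 4.39 and 4.44 against 6.51, 6.84 and 6.30 (change -1.98, adjusted p = 0.000583). Serpina1a measured 6.39, 4.24 and 4.38 against 8.16, 8.11 and 8.03 (change -3.10, adjusted p = 0.00694). Klk11, a serine protease beside Klk10 in the genome, measured 6.15, 4.16 and 4.29 against 7.30, 7.46 and 6.24 (change -2.13, adjusted p = 0.0194). At Klk11 the lowest unligated sample, saline RCA 4, lay just above saline LCA 1.

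Smooth muscle contractile genes gave 3 of 17 higher and none lower, with a median of 0.60. The count was 0 in the 6-array fit, 5 without saline LCA 1, and 0 or 1 without another saline array. The actin-binding caldesmon, Cald1, measured 7.91, 9.30 and 8.96 against 7.16, 7.52 and 7.27 (change 1.40, adjusted p = 0.0223), and the myosin light chain Myl9 rose by 1.55 (adjusted p = 0.0436). Fibroblast markers gave 1 of 19 higher and 4 lower, beside 5.29% and 6.24% of all genes. The counts were 0 and 1 in the 6-array fit, and 0 to 2 higher and 1 lower without a saline array other than LCA 1. The adventitial marker Pi16 measured 9.95, 7.55 and 7.66 against 10.30, 10.44 and 10.44 (change -2.01, adjusted p = 0.0301), with saline LCA 1 near the unligated level.

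Genes that handle DNA methylation and HOX genes each included a few called members, beside 5.29% of all genes higher and 6.24% lower. Of 11 tested, 2 rose and 1 fell (1 and 0 in the 6-array fit, and 1 higher and 0 or 1 lower without a saline array other than LCA 1). Gadd45a, a stress-induced protein tied to demethylation and repair, measured 7.36, 7.17 and 7.14 against 5.08, 5.78 and 4.34 (change 2.16, SE 0.33, adjusted p = 0.00528). Uhrf1, which brings the maintenance methyltransferase to replicated DNA, measured 6.32, 8.65 and 8.55 against 5.69, 5.24 and 6.27 (change 2.11, adjusted p = 0.0428), with saline LCA 1 near the unligated level. The de novo methyltransferase Dnmt3a measured 7.40, 7.05 and 7.31 against 8.33, 7.95 and 8.19 (change -0.90, adjusted p = 0.0106). HOX genes gave 2 of 14 lower and none higher, Hoxa5 (7.05, 6.54 and 6.79 against 8.13, 8.19 and 8.24, change -1.39, adjusted p = 0.00523) and Hoxa10 (-1.07, adjusted p = 0.0121).

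In the 12-array fit, several lists stayed close to the background rate of 5.29% higher and 6.24% lower. Respiratory chain genes gave 1 of 42 higher and 2 lower, cholesterol genes 1 of 18 higher and none lower, and glycolysis genes 1 of 17 higher and 1 lower. Mechanosensor genes gave 1 of 19 higher and 2 lower, among them the calcium channel Trpv4 (5.04, 4.76 and 4.80 against 5.97, 6.28 and 5.73, change -1.13, adjusted p = 0.0256). Without saline LCA 1, 13.7% of all genes were higher and 15.7% lower. Respiratory chain genes then gave 11 and 3, cholesterol genes 4 and 1, glycolysis genes 4 and 1, and mechanosensor genes 3 and 6. All ligated samples lay above all unligated ones at 7 of 17 glycolysis genes and below at 2, and at mechanosensor genes above at 1 and below at 6. Ribosomal protein, antioxidant and immediate early genes were called higher more often than 5.29%. Ribosomal protein genes gave 5 of 34 higher and none lower, led by Rps7 (1.07, adjusted p = 0.0154). The count was 12 and 1 without saline LCA 1 and 0 to 2 higher without another saline array. At 17 of the 34 all ligated samples lay above all unligated ones, beside 13.3% of all genes. Antioxidant genes gave 3 of 21 higher and 1 lower, or 7 and 3 without saline LCA 1 and at most 1 higher without another saline array. None of these passed in the 6-array fit. Immediate early genes gave 2 of 16 higher, Fosl2 (1.57, adjusted p = 0.0206) and Egr2 (1.97, adjusted p = 0.0413), with 0 or 1 without another saline array.

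**Figure D4:**
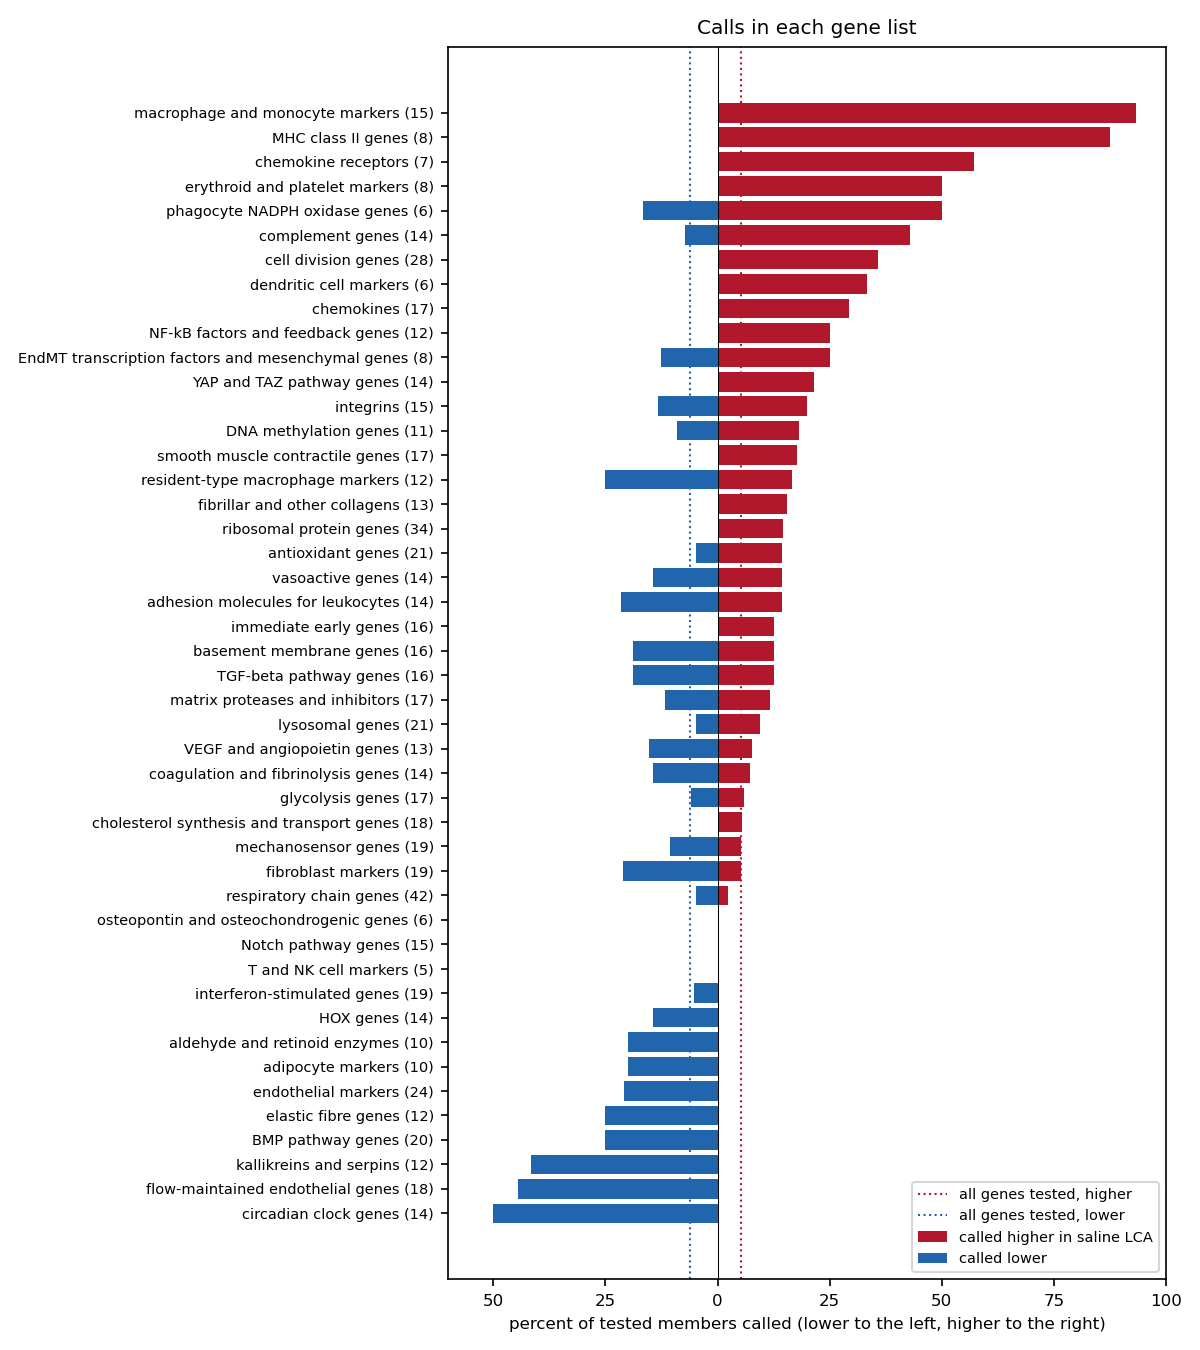
Percent of tested members called higher in saline LCA (red, to the right) or lower (blue, to the left) in the 12-array fit, for lists with at least 5 tested members (number in parentheses). Dotted lines mark 5.29% higher and 6.24% lower over all genes; macrophage and MHC class II genes lie farthest right, and clock and flow-maintained genes farthest left.

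The 5Aza arteries came from other mice and share no array with the saline samples, so the saline calls could be read again in them. Of the 129 genes called in the 6 saline arrays, 123 (95.3%) had the same sign in the 6 5Aza arrays, where 47.7% of all genes were higher in the ligated artery. Of them 84 (65.1%) also reached an unadjusted p under 0.05 there, 48 of 76 higher and 36 of 53 lower, beside 7.8% of all genes in each direction. None reached it with the opposite sign. Calling the genes without 1 saline array at a time gave 782 of 3207 without saline LCA 1. Without saline LCA 2 or 4 it gave 3 of 4 and 7 of 9, and without saline RCA 1, 2 or 4 it gave 3 of 5, 3 of 4 and 2 of 2. The 12-array fit takes part of its spread from the 5Aza arrays, so its calls were not made apart from them. Of its 1221 calls, 1106 (90.6%) had the same sign and 508 (41.6%) also reached an unadjusted p under 0.05, with 10 opposite.

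Among genes chosen by their saline values, changes were smaller under 5Aza. The 76 higher genes had a median log2 fold change of 2.41 under saline and 1.13 under 5Aza, and the 53 lower genes -1.64 and -0.96. The saline values chose these genes and the 5Aza values did not. Such a choice favours large saline changes, so these medians cannot be compared as effect sizes. The sizes are not compared by a test here. Aif1 changed by 3.17 under 5Aza, Prrt4 by -3.24, Klk10 by -3.22, Angpt2 by 1.91 and Mmp12 by 3.34. Cd74 changed by 1.15.

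The difference between the saline and 5Aza changes was tested directly. In limma 0 of 10596 genes passed (0%), with 1009 at an unadjusted p under 0.05, and the smallest adjusted p among the 30 named genes was 0.308. Without saline LCA 1 the same test called 1016 genes. The genes with the smallest adjusted p (all at 0.203 or 0.229) included Cxcl10, at 5.71, 6.42 and 5.85 in saline LCA 1, 2 and 4 and 4.43, 4.52 and 4.57 in 5Aza LCA 1, 2 and 4, and undetected on both unligated sides. They also included the leukocyte inhibitory receptor Lair1, at 5.78, 6.72 and 6.73 in saline LCA and 4.52, 4.36 and 4.55 in 5Aza LCA, and again undetected on both unligated sides. In the other direction they included the lipid desaturase Scd1, which changed by -1.78 under saline and by 1.14 under 5Aza. None of these passed the test of the difference.

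**Figure D5:**
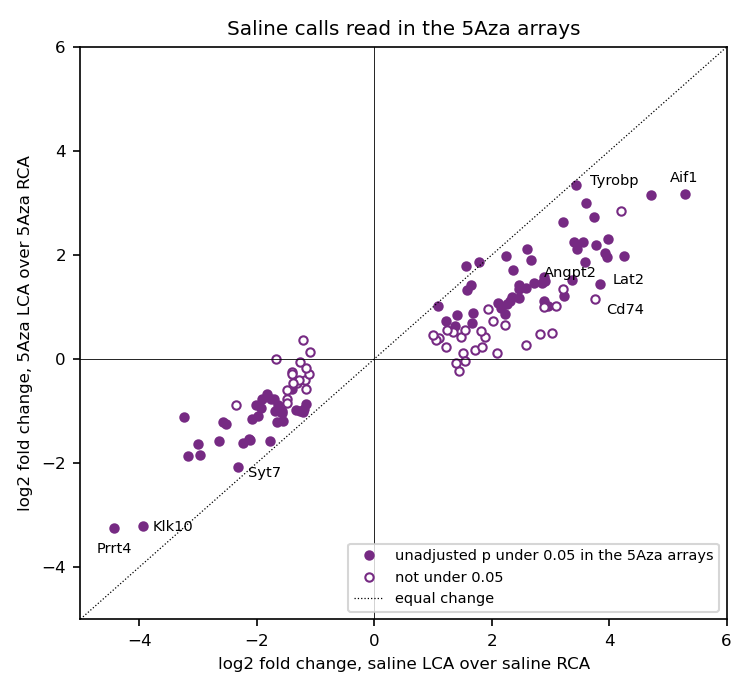
Log2 fold change of ligated over unligated artery under saline (horizontal axis) and under 5Aza (vertical axis) for the 129 genes called in the 6 saline arrays; filled points reached an unadjusted p under 0.05 in the 5Aza arrays. Of the 129 points, 123 lie in the quadrants of equal sign, most of them between the horizontal axis and the dotted line of equal change. Genes undetected in one artery, such as Prrt4, are plotted at their fitted values.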

How the data were processed

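Mouse carotid RNA was hybridised to Illumina bead arrays in 12 samples. Per the submitters' processing notes GenomeStudio 2010.3 was used. The deposited table holds the intensity of each probe without normalization, with a detection p-value against negative control beads, per the file headers, and a second deposited table holds intensities that the authors quantile-normalized, as judged from its equal columns. The labels spread the arrays over 2 microarrays without saying which sample lay on which, so this batch could not be fitted.

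Intensities were corrected with normexp (limma 3.58.1 in R 4.3.3, negative controls inferred from the detection p-value, offset 16), quantile-normalized and taken to log2. Probes detected (p under 0.05) on all 3 arrays of at least 1 group were kept, 21979 of 45281, and the brightest probe with 1 gene symbol stood for its gene. Of all probes 34885 had 1 symbol, 18 several and 10378 none in the platform annotation used here, and 34807 were matched to a current gene. The model had 1 mean per group, and p-values were Benjamini-Hochberg adjusted over all 10596 genes. The samples were compared as unpaired, since the labels do not say whether the sides shared mice. Residuals of equally numbered LCA and RCA samples correlated at 0.056, 0.047 and 0.033, and those of unequally numbered ones lower, at -0.067 to 0.023. Whether equal numbers mark shared mice was not tested, and counts with a replicate block are given below. A gene that no array of the dimmer group detected is given as a lower bound, the bright group's mean against the higher of the lowest signal among detected probes and the gene's own value in the dim group, and elsewhere the log2 fold change is given.

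Named genes were the 15 largest changes in each direction called in both fits with groups that do not overlap, and called members of the lists. The groups, gene lists and tests were chosen with earlier results of these data known. Of 1033 list entries in 52 lists, 716 were tested. Promoter windows came from RefSeq. Arrays report no read depth, and the number of arrays limits the precision. On simulated data of 10596 genes the 12-array fit of saline LCA against saline RCA recovered 43% of 100 log2 changes of 1 and 91% of 100 log2 changes of 2, with 9 false calls. Alternatives covered background correction, offset, scaling, detection filter, probe choice, variance model, replicate block and leaving out each array.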

Additional observations from a re-analysis of the deposited data

How the results depend on the processing

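The counts depended most on single saline arrays. Leaving out 1 array at a time gave 179 to 3114 called genes (92 to 1448 higher, 87 to 1666 lower), with the highest count without saline LCA 1, and the pair left in such a group is taken to spread as the rest do. The fit to the 6 saline arrays gave 129 (76 higher, 53 lower), with fewer residual degrees of freedom. With the replicate block, a number not shown to pair mice, the 12-array fit gave 1512 and the 6-array fit 35 (27 higher, 8 lower). With no filter on detection 616 genes were called (283 higher, 333 lower), and with probes detected on all 12 arrays 321 were higher and 35.4% of calls were higher, against 45.9%. The other settings (1 spread for each group, the authors' values, no background correction, offset 50, scaling to 1 median, the mean of a gene's probes, trend and robust prior) gave 996 to 1537 calls. The difference between saline and 5Aza gave 1 call with no filter on detection and 1 with a trend and robust prior, and 0 to 1016 when arrays were left out. The reading in the 5Aza arrays gave 508 with the 12-array calls and 2 to 782 when arrays were left out, of 2 to 3207 genes called. Of 168 genes followed, 156 were called and none of these changed direction under any setting. Miat, not called at -0.03 on the log2 scale, ranged from -0.075 to 0.054 when arrays were left out. The cause of these shifts was not tested. An undetected gene has only a bound, and no array reports counts.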

Other observations

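Called genes often lay beside another gene called in the same direction, a pattern looked for after the values were seen and given as a description with no test. Among the 10574 genes placed on the genome, 101 of 559 called-higher genes (18.1%) had a called-higher neighbour in the order of tested genes, against 10.1% of all genes. Of 661 called-lower genes, 128 (19.4%) had a called-lower neighbour, against 11.9% of all genes. Most runs were short, with 81 of 2 genes, 14 of 3, 5 of 4 and 1 of 5.

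The longest run held 5 histone genes on chromosome 13, H2ac4, H4c2, H4c1, H3c1 and H1f1, all higher in saline LCA. H4c1 measured 8.67, 10.33 and 10.37 in saline LCA 1, 2 and 4 against 7.84, 8.12 and 8.62 in saline RCA 1, 2 and 4, a log2 change of 1.60 (adjusted p = 0.0289). H3c7, of another histone run on the same chromosome, measured 4.61, 9.09 and 8.96 against 4.48, 4.44 and 4.39, so that saline LCA 1 stood with the unligated samples (adjusted p = 0.0431). None of H3c7, H4c1, H4c2, H3c1, H2ac4 and H1f1 passed in the 6-array fit. Replication-dependent histone genes are known to be used in S phase.

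A run on chromosome 1 held Ifi207, Ifi204, Mndal and Ifi211, members of the interferon-inducible p200 family, some of which sense DNA, all called higher in saline LCA. None of them passed in the 6-array fit (adjusted p = 0.0501 to 0.0795 in limma). Ifi207 measured 5.78, 7.77 and 7.85 against 4.28, 4.29 and 4.28, at least 6.18-fold higher (adjusted p = 0.0087). Ifi204 measured 5.05, 6.31 and 6.63 and was detected in no unligated sample, at least 2.82-fold higher (adjusted p = 0.0111). Under 5Aza the 3 ligated samples measured 5.97, 5.30 and 6.81 at Ifi207 against 4.88, 5.01 and 4.34 in the unligated ones, a log2 change of 1.29 (adjusted p = 0.335). Mndal changed by 0.06 (adjusted p = 0.967) and Ifi211 by 0.63 (adjusted p = 0.389) under 5Aza. Ifi204 was detected on 1 of 3 arrays of each 5Aza artery, so no change is given for it. Probes of histone and p200 genes may read close copies, which was not checked.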
